A study of Mus musculus with 18 samples.

Results

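Inhibitory receptors of mast cells were followed across the 6 groups of a comparison of cells labelled as Sirt6 knockout (KO) and wild type (WT). The genes were taken by symbol: Fcgr2b, Cd33, Cd300a, Cd300lf, Milr1, Pecam1, Ceacam1, Cd200r1, Lilrb4a and Sirpa. They are 10 of the 45777 genes counted, and all 10 were among the 17159 genes that passed the filter on low counts. RNA was sequenced in 18 libraries of mast cells that had been cultured from mouse bone marrow. WT cells were Sirt6 flox/flox, with loxP sites around part of both Sirt6 alleles, and KO cells were LysM-Cre; Sirt6 flox/flox, so the floxed alleles were common to all groups and Cre was present in KO alone. Sirt6 encodes a nuclear deacetylase, and the lysozyme M promoter that drives this Cre is active in myeloid cells. A group that carries Cre without floxed Sirt6 was not analysed here. Each genotype was sampled at the levels 0, 20 and 60, whose unit is not given. The labels name lipopolysaccharide (LPS) as the treatment at 20 and 60 and no treatment at 0, while the series title names FcεRI, the high-affinity IgE receptor. Every group had 3 libraries, which carried the numbers 414, 4120 and 6110. Whether the numbers mark separate animals or cultures is not stated, so p-values measure the spread between these samples, which may in part be technical. The 3 libraries of a genotype and number, at levels 0, 20 and 60, are called a set below.

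Receptors of this kind hold back mast cell activation. Most carry immunoreceptor tyrosine-based inhibitory motifs (ITIMs) in the cytoplasmic tail, which Src-family kinases such as Lyn phosphorylate when the receptor is brought close to FcεRI or Kit. The phosphorylated motifs recruit the tyrosine phosphatases SHP-1 (Ptpn6) and SHP-2 (Ptpn11) or the lipid phosphatase SHIP-1 (Inpp5d), which oppose the kinases downstream of the activating receptor.

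The receptors differed in what their transcripts followed. Cd33, a sialic acid-binding lectin, was 4.61-fold higher at level 60 than at 0 in WT and 5.73-fold higher in KO. Fcgr2b, the inhibitory IgG receptor, was 1.66-fold higher in KO than in WT over the 3 levels, and its KO libraries lay above the WT libraries at every level. Lilrb4a and Cd300lf were at 0.546 and 0.677 times the WT level in KO. These 3 differences between the genotypes passed the test over 18 libraries, as 10.9% of all genes did. None passed when the counts of each set were summed, a test that only 0.142% of genes passed. For the other 6 receptors no comparison passed this edgeR test.

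Total counts ran from 20026054 to 42265435 per library, and mitochondrially encoded genes took 4.09% to 41.9% of them. This share was over 20% in 5 libraries: WT 4120 at 0 and 20, WT 414 at 60, and KO 414 at 0 and 60. The mast cell markers were all counted in each group, with a summed level of 15522 to 45910 CPM (read counts scaled to library size, with TMM factors), led by Cpa3 or Cma1. Sirt6 itself was not lower in KO (log2 fold change over all levels 0.18, edgeR adjusted p = 0.34). Counts per gene include the undeleted exons, so Sirt6 checks no genotype label. Lyz2, the locus that holds Cre in the LysM-Cre line, had a log2 fold change of −4.48 in KO (edgeR adjusted p = 0.00035). It was scarce, with means over the sets of 2.08 ± 1.03 CPM (SD, n = 3) in WT and 0.094 ± 0.069 CPM in KO. In KO libraries 3 counts equal 0.069 to 0.18 CPM, so Lyz2 was near the counting limit there.

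Lilrb4a was by far the most abundant of these transcripts per length. In TPM, a transcript's share of the library corrected for its length, it averaged 4170 ± 1366 (SD, n = 18), from 1715 to 6007. Cd300a followed at 255 ± 94.6 TPM, Pecam1 at 144 ± 50.9, Fcgr2b at 131 ± 62.0 and Cd300lf at 87.8 ± 25.7. Cd33 averaged 71.6 ± 51.9 TPM, Sirpa 52.4 ± 18.7 and Cd200r1 34.9 ± 18.1. Milr1 at 11 ± 4.02 TPM and Ceacam1 at 3.55 ± 1.53 TPM were the lowest. Lilrb4a exceeded Cd300a, Cd300a exceeded Pecam1, Cd200r1 exceeded Milr1 and Milr1 exceeded Ceacam1 in 18 of 18 libraries. The order in the middle was not fixed: Pecam1 exceeded Fcgr2b in 13 libraries, Fcgr2b exceeded Cd300lf in 13, Cd300lf exceeded Cd33 in 12, and Cd33 exceeded Sirpa in 9. Sirpa exceeded Cd200r1 in 16 libraries. Of these neighbours in the order, only Lilrb4a and Cd300a had ranges that did not overlap.

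**Figure D1:**
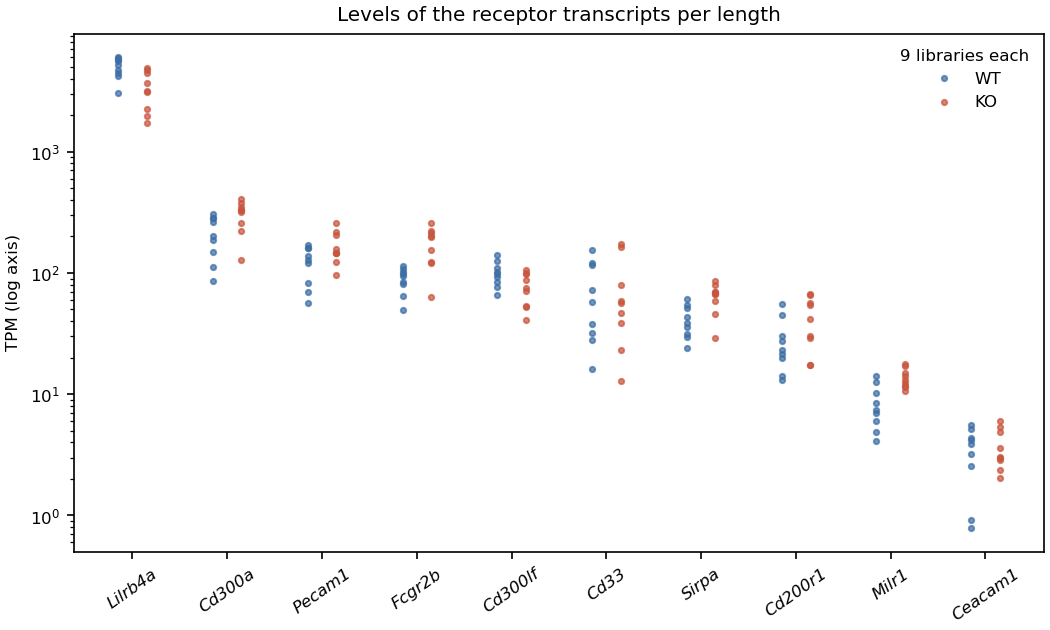
TPM of each receptor on a log axis, 1 point per library, with the 9 WT and 9 KO libraries side by side and the receptors in order of their mean. Lilrb4a lies between 1715 and 6007 TPM, above every other receptor, and Ceacam1 averages 3.55 TPM.

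A promoter window of 250 bases before to 50 after the start site was found in the RefSeq table (GRCm38.p6) for 6 of the 10 receptors. The windows of 3 are shown because their transcripts passed a test: Cd33 with the level, Fcgr2b and Cd300lf between the genotypes. Capitals mark the letters GGAAA (the core bound by NFAT factors) and GGAAGT (a core bound by PU.1), on either strand. Windows are chr1:170976022-170976321 for Fcgr2b, chr7:43533122-43533421 for Cd33 and chr11:115133943-115134242 for Cd300lf, all read 5′ to 3′ on the minus strand.
Fcgr2b: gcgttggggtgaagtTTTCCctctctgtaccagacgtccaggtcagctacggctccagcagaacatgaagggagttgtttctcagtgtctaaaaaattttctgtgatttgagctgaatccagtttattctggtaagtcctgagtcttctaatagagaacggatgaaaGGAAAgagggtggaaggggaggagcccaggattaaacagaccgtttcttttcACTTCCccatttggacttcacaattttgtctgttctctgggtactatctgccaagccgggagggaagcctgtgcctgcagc
Cd33: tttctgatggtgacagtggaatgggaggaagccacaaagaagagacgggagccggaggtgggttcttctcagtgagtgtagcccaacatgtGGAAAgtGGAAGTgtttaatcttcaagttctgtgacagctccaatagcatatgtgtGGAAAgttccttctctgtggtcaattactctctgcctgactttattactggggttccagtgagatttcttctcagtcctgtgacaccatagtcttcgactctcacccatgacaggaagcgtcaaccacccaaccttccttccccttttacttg
Cd300lf: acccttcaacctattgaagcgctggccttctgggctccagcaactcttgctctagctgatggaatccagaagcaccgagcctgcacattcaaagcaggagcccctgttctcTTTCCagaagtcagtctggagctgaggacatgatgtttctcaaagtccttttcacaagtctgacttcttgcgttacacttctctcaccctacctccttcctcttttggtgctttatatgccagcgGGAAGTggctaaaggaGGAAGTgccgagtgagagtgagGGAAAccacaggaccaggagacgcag
The Fcgr2b window holds GGAAA at 2 places and GGAAGT, on the other strand, 31 bases before the start. The Cd33 window holds GGAAA at 103 and 159 bases before the start and GGAAGT at 152. In the Cd300lf window GGAAGT occurs 2 times, at 14 bases before and 3 after the start, and GGAAA at 139 before, on the other strand, and 25 after. These letters are common: of 32851 such windows, 61.3% hold GGAAA and 23.8% hold GGAAGT. The AP-1 letters TGANTCA (7.81% of windows), the cyclic AMP element TGACGTCA (1.79%), the GATA letters AGATAA (11.2%), the E-box CACGTG (7.15%) and the NF-kB motif (8.46%) were also searched on both strands and match none of these 3 windows. The starts used here for Cd33 and Cd300lf lie inside the annotated genes, which extend further upstream.

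Fcgr2b (gene ID 14130, chr1:170960558-170976071, GRCm38) encodes FcγRIIB, which binds IgG in immune complexes and signals through SHIP-1. In WT it was counted at 82.6, 101 and 89.4 CPM at level 0 in the numbers 414, 4120 and 6110, an order kept for all values below. The WT values were 64.4, 94.0 and 96.5 CPM at 20 and 64.6, 73.6 and 67.3 CPM at 60. In KO they were 131, 173 and 141 CPM at 0, 106, 138 and 157 at 20, and 86.0, 144 and 134 at 60. The KO libraries were all above the WT libraries of the same level, and KO was higher in 9 of 9 pairs of number and level. Of all genes tested, 5.94%, 8.35% and 7.34% had KO libraries wholly above WT at 0, 20 and 60, and 7.79% were higher in 9 of 9 pairs. The log2 fold change of KO against WT was 0.70 ± 0.22 (SE) at 0, 0.66 ± 0.22 at 20 and 0.82 ± 0.22 at 60. By edgeR's quasi-likelihood test with Benjamini-Hochberg adjustment none of these passed (adjusted p = 0.28, 0.51 and 0.20). At 60 the library numbers met the rule for pairing given under the processing. Number 414 had a mitochondrial share over 20% in both genotypes there, so pairing cannot be told apart from that shared trait. With the number as a block over all 18 libraries the change was 0.79 and the edgeR adjusted p 0.023. Fitted to the 2 groups alone, the block gave 0.78 and an edgeR adjusted p of 0.067.

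Over all levels Fcgr2b rose by 0.73 ± 0.13 on the log2 scale (edgeR adjusted p = 0.0034). That test treats the 3 libraries of a set as separate samples. Their correlation within a set, a consensus over all genes tested and not a value of Fcgr2b, was estimated at 0.447. With the counts summed over each set the change was 0.76 ± 0.19 and the edgeR adjusted p 0.26. With the set as a random effect in limma-voom the adjusted p was 0.065, and without number 4120 the edgeR value was 0.070. Fcgr2b kept its call without the 5 libraries of high mitochondrial share (0.86, edgeR adjusted p = 0.015). Its mean level over a set was 70.5, 89.7 and 84.4 CPM in WT and 108, 151 and 144 CPM in KO, again without overlap, as for 9.6% of all genes in this direction and 10.4% in the other, among them Cd300lf and Lilrb4a. In WT its 3 libraries at 60 also lay below those at 0, as in 4.8% of genes, with a log2 change of −0.41 ± 0.22 that did not pass (edgeR adjusted p = 0.72).

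Fcgr2b is also expressed by macrophages and B cells. The 13 macrophage and monocyte markers summed to 114 to 273 CPM in WT libraries and 173 to 358 CPM in KO, of which Cd68 was the largest. The WT groups had 11 or 12 of these markers with counts and the KO groups 12, with C1qa at 0 in KO at levels 0 and 20, C1qb at 0 in KO at 60, Ly6c2 at 0 in WT at 0, C1qa at 0 in WT at 20 and Mrc1 at 0 in WT at 20 and 60. The 13 neutrophil and precursor markers summed to 1.22 to 6.50 CPM in WT and 9.22 to 28.7 CPM in KO, and all 13 were counted in each KO group, while Elane and Retnlg were at 0 in every WT group. Over all levels 4.29% of all genes were called higher in KO. Of the 8 tested macrophage markers 2 were called higher, Itgam (mean CPM per group 0.034 to 0.326 in WT and 0.713 to 1.59 in KO, edgeR adjusted p = 0.0021) and Ly6c2 (adjusted p = 0.0043). Itgam was also called at level 0 (edgeR adjusted p = 0.033), a call that leaving out any of 8 single libraries ended (adjusted p 0.0518 to 0.137). Of the 9 tested neutrophil markers 6 were called higher, by smallest p Lcn2, Ly6g, S100a9 and Ltf (edgeR adjusted p 0.0025, 0.0096, 0.016 and 0.021). Among the 3 basophil markers, which summed to 121 to 233 CPM in WT and 114 to 198 CPM in KO and were led by Cd200r3, Mcpt8 and Prss34 were called higher (edgeR adjusted p = 0.033 and 0.038). Each of these 2 calls was lost without any of 10 single libraries (adjusted p 0.0508 to 0.0794 for Mcpt8, 0.0550 to 0.0993 for Prss34). With counts summed per set none of these markers passed (edgeR adjusted p 0.18 for Itgam and Lcn2 to 0.41 for S100a9). The part of such cells in the receptor differences was not tested. In bulk RNA, more cells of a type and more RNA per cell cannot be told apart. The 6 B cell markers summed to 1.12 to 17.3 CPM in WT and 0.973 to 8.37 CPM in KO, with Ms4a1 at 0 in every KO group.

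Fcgr3, the activating IgG receptor encoded near Fcgr2b on chromosome 1, moved the same way. It rose in KO by 0.78 on the log2 scale over all levels (edgeR adjusted p = 0.016), but not with counts summed per set (adjusted p = 0.35). The Pearson correlation of Fcgr2b and Fcgr3 was 0.68 over the 18 libraries, which share sets and genotypes. Of 35 tested genes that start within 500 kb of Fcgr2b, 4 were called over all levels, where 10.9% of all genes were. Fcgr3 and F11r were higher, and Cfap126 and Gm2962 were lower.

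**Figure D2:**
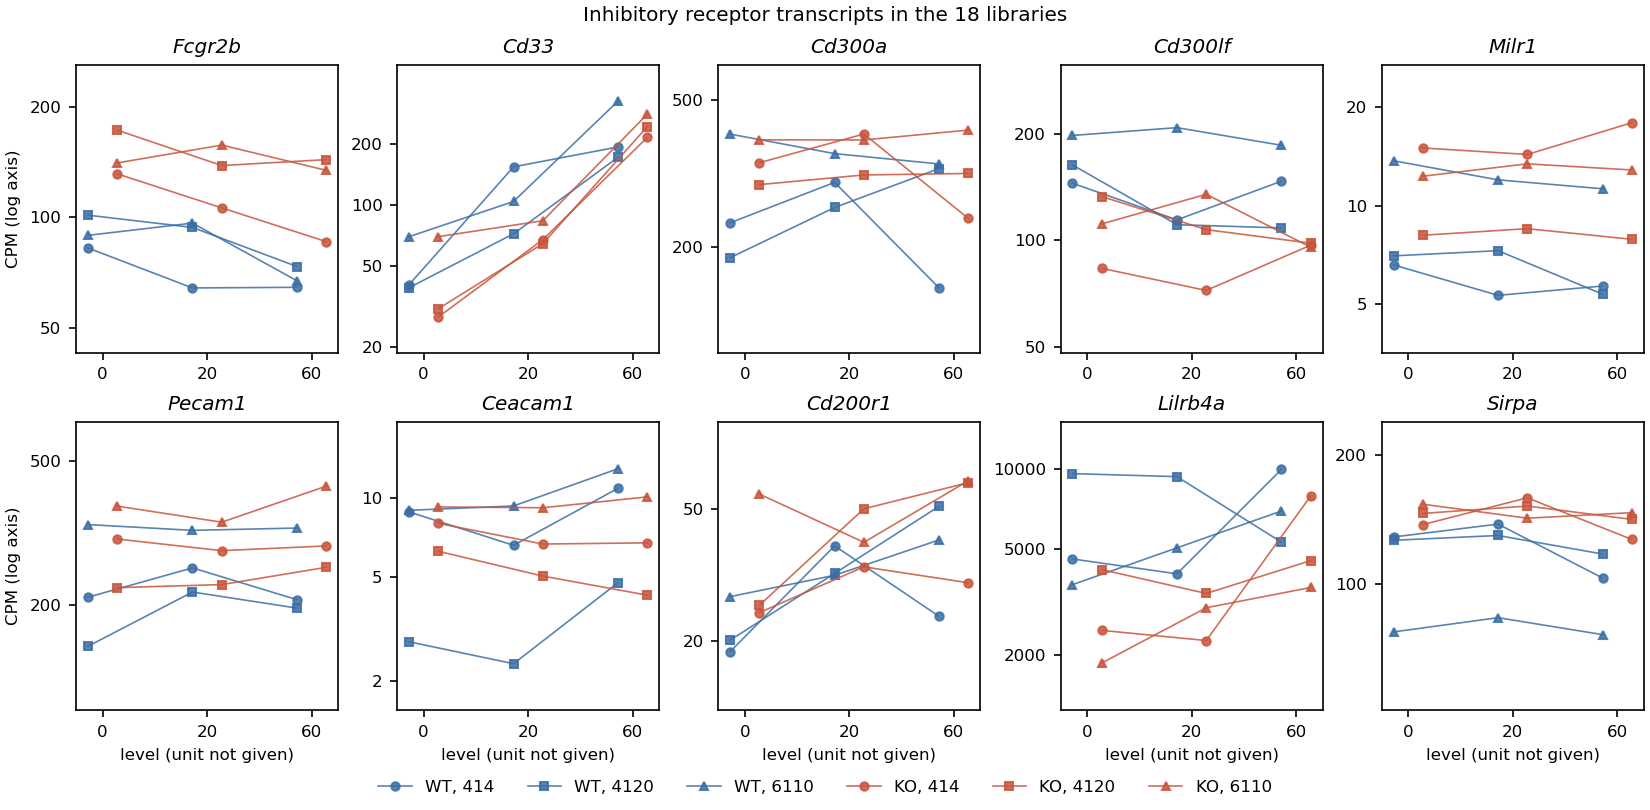
CPM of the 10 receptors on log axes in each library, with lines joining the 3 levels (evenly spaced, unit not given) of a set, WT in blue and KO in red, and the number shown by the marker. The Fcgr2b lines of KO lie above those of WT, the Cd33 lines climb with the level in both genotypes, and within each genotype the Pecam1 lines keep the order 4120, 414 and 6110 from low to high.

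Among the receptors of lipids, Cd300lf and Cd300a did not move together. Cd300lf (gene ID 246746, chr11:115116214-115135372) binds ceramide and sphingomyelin and recruits SHP-1. In WT it stood at 145, 163 and 198 CPM at level 0, 114, 111 and 208 at 20, and 147, 108 and 185 at 60. In KO it stood at 83.4, 133 and 111 CPM at 0, 72.2, 107 and 135 at 20, and 96.9, 98.2 and 95.6 at 60. KO was lower in 9 of 9 pairs, as in 9.63% of all genes, and wholly below WT at 0 and 60, as in 7.14% and 7.86%. At 20 the groups overlapped. Over all levels Cd300lf fell by 0.56 ± 0.17 on the log2 scale (edgeR adjusted p = 0.040), and 10.9% of all genes were called in this comparison, 4.29% as higher and 6.62% as lower. With counts summed per set it fell by 0.54 (edgeR adjusted p = 0.47), and only 0.142% of 18280 genes were called. Leaving out any of 13 of the 18 single libraries also ended the call, with edgeR adjusted p of 0.0501 to 0.0923. Without the 5 libraries of high mitochondrial share it fell by 0.56 (adjusted p = 0.18). Those 13 libraries were all of WT at 0 and of KO at 60, and in addition WT 6110 at 20, WT 414 and 6110 at 60, KO 414 and 6110 at 0, and KO 414 and 4120 at 20. The gene overlaps Rab37, and no label says whether strand was kept, so reads from the overlap cannot be assigned.

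Cd300a (gene ID 217303, chr11:114889152-114901946) binds the phospholipids that dying cells expose. It was counted at 232, 187 and 405 CPM in WT at 0, at 299, 256 and 358 at 20, and at 155, 326 and 336 at 60. In KO it was counted at 339, 295 and 391 CPM at 0, at 405, 314 and 390 at 20, and at 239, 317 and 415 at 60. The genotypes overlapped at every level and KO was higher in 7 of 9 pairs. Over all levels its log2 fold change was 0.28 ± 0.19 (edgeR adjusted p = 0.32). The lowest Cd300a values in each genotype, 155 and 239 CPM, came from the libraries of number 414 at 60, both with a mitochondrial share over 20%. Near both genes, Cd300c was lower in KO over all levels (log2 fold change −1.65), 1 of 4 called genes among 23 tested within 500 kb of Cd300a. The share of all genes called over all levels was 10.9%.

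Lilrb4a (gene ID 14728, chr10:51490898-51496613) encodes gp49B1, which binds the integrin αvβ3 and carries ITIMs. In WT it was counted at 4595, 9597 and 3681 CPM at 0, at 4042, 9348 and 5057 at 20, and at 9952, 5310 and 6952 at 60. In KO it was counted at 2481, 4192 and 1872 CPM at 0, at 2273, 3412 and 3016 at 20, and at 7914, 4529 and 3592 at 60. KO was lower in 9 of 9 pairs, and wholly below WT at 20 alone, as in 8.95% of all genes. The log2 fold change was −1.06 ± 0.45 at 0, −1.08 ± 0.45 at 20 and −0.47 ± 0.45 at 60, none of which passed (edgeR adjusted p = 0.38, 0.61 and 0.72). Over all levels Lilrb4a fell by 0.87 ± 0.26 (edgeR adjusted p = 0.042), and with counts summed per set it fell by 0.78 ± 0.28 (adjusted p = 0.37).

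The Lilrb4a values followed the mitochondrial share. The Pearson correlation of its log2 CPM with the log2 share was 0.71 over 18 libraries, which share sets, against a median of −0.042 over all genes. Its highest values in WT, 9597, 9348 and 9952 CPM, were those of the 3 WT libraries with a share over 20%. In KO, number 414 was the highest at 60 (7914 CPM, share 34.7%), but at 0 its 2481 CPM at a share of 27.2% lay below the 4192 CPM of number 4120 at 10.2%. With the share as a covariate it fell by 0.42 in KO (edgeR adjusted p = 0.26), and without the 5 libraries it fell by 0.56 (adjusted p = 0.20). Leaving out 13 of the 18 libraries one at a time ended the call (edgeR adjusted p 0.0518 to 0.1001). These were WT 414 and 4120 at 0, WT 4120 and 6110 at 20, WT 414 and 6110 at 60, KO 414 and 6110 at 0, all of KO at 20, and KO 4120 and 6110 at 60. In KO its libraries at 60 were all above those at 20, as in 8.58% of genes, with a log2 change of 0.88 ± 0.45 that did not pass (edgeR adjusted p = 0.54). Lilrb4a also has a close paralog beside it, the activating receptor gene Lilr4b (gp49A, chr10:51480612-51486329). Lilr4b had a correlation of 0.99 with Lilrb4a and fell by 1.03 over all levels (edgeR adjusted p = 0.019), but not with summed counts (adjusted p = 0.29). Reads that fit both copies could have been split between them, so the level of either is uncertain.

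Sirpa (gene ID 19261, chr2:129591042-129632228) is the receptor of Cd47, the signal that keeps phagocytes from eating a cell. It stood at 129, 127 and 77.3 CPM in WT at 0, 138, 130 and 83.4 at 20, and 103, 118 and 76.2 at 60. In KO it stood at 138, 146 and 154 CPM at 0, 159, 152 and 142 at 20, and 127, 142 and 147 at 60. KO lay wholly above WT at 0, 20 and 60, as in 5.94%, 8.35% and 7.34% of all genes, and number 6110 was the lowest library of each WT group. The log2 fold change over all levels was 0.42 ± 0.13 and missed the threshold (edgeR adjusted p = 0.053). It was 0.22 without number 6110, and DESeq2 and limma-voom gave adjusted p of 0.026 and 0.045. With edgeR it passed without WT 414 at 20, WT 4120 at 60 or KO 414 at 60 (adjusted p 0.0418 to 0.0469), and it did not pass with summed counts (0.43, adjusted p = 0.47). Dendritic cells also express Sirpa, and their 8 markers summed to 6.77 to 15.2 CPM in WT and 13.6 to 20.9 CPM in KO, led by H2-Ab1, with Siglech at 0 in every WT group and Siglech or Flt3 at 0 in each KO group. Their part in the Sirpa values was not tested. Its ligand Cd47 gave no call over all levels (log2 fold change 0.38, edgeR adjusted p = 0.25).

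Cd200r1 (gene ID 57781, chr16:44765736-44794977) has no ITIM and works through the adaptors Dok1 and Dok2. It was counted at 18.6, 20.1 and 27.2 CPM in WT at 0, at 38.8, 32.0 and 31.6 at 20, and at 23.7, 51.1 and 40.4 at 60. In KO it was counted at 24.4, 25.6 and 55.6 CPM at 0, at 33.5, 50.2 and 39.7 at 20, and at 30.0, 60.2 and 61.0 at 60. KO was higher in 8 of 9 pairs with overlap at every level (log2 fold change over all levels 0.45 ± 0.20, edgeR adjusted p = 0.15). All 3 WT libraries at 20 were above those at 0, as in 5.46% of genes, with a log2 change of 0.63 ± 0.35 that did not pass (edgeR adjusted p = 0.92). Its correlation with the log2 mitochondrial share was −0.78 and that of Cd300a was −0.75. With the share as a covariate the log2 fold change of KO against WT over all levels was 0.061 for Cd200r1 and 0.061 for Cd300a (edgeR adjusted p = 0.83 and 0.86). Without the 5 libraries of high share it was 0.49 for Cd200r1 and 0.14 for Cd300a (adjusted p = 0.20 and 0.67).

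The adhesion receptors followed the library number more than genotype or level. Pecam1 (gene ID 18613, chr11:106654213-106715281) binds itself between cells and recruits SHP-2. It was counted at 210, 153 and 333 CPM in WT at 0, at 253, 217 and 321 at 20, and at 206, 196 and 325 at 60. In KO it was counted at 303, 223 and 374 CPM at 0, at 282, 227 and 338 at 20, and at 290, 253 and 425 at 60. Number 6110 was the highest and 4120 the lowest in all 6 groups. KO exceeded WT in 9 of 9 pairs, as in 7.79% of all genes, yet the groups overlapped at each level and the log2 fold change of 0.30 ± 0.18 over all levels did not pass (edgeR adjusted p = 0.28). Pecam1 is also a marker of endothelial cells. The 6 endothelial markers summed to 119 to 311 CPM in WT and 170 to 399 CPM in KO, led by Vwf, with Emcn at 0 in both genotypes at 0 and 60. Vwf carried that sum: of the list's 3 tested genes 1 was higher in KO over all levels, the median log2 fold change was −0.52, and Tek was called lower (−0.52, edgeR adjusted p = 0.042). The Tek call was lost without any of 13 single libraries (edgeR adjusted p 0.0525 to 0.0982). Megakaryocytes and platelets express Pecam1 too, and their 6 markers summed to 4174 to 5880 CPM in WT and 2354 to 3815 CPM in KO, nearly all of it Itga2b, with Ppbp or Treml1 at 0 in each group. Itga2b fell by 0.68 (edgeR adjusted p = 0.0083). With counts summed per set neither Tek nor Itga2b passed (adjusted p = 0.42 and 0.41). Their part in the Pecam1 values was not tested.

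Ceacam1 (gene ID 26365, chr7:25461702-25477647) also binds itself between cells. Its values in WT were 8.83, 2.83 and 8.95 CPM at 0, 6.59, 2.33 and 9.30 at 20, and 10.9, 4.75 and 12.9 at 60. In KO they were 7.98, 6.25 and 9.22 CPM at 0, 6.66, 5.03 and 9.16 at 20, and 6.73, 4.26 and 10.1 at 60. Number 4120 was the lowest in each group, and KO was higher in 4 of 9 pairs. Over all levels its log2 fold change was −0.02 ± 0.29 (edgeR adjusted p = 0.97). The gene overlaps 4732471J01Rik and has a paralog, Ceacam2, nearby, which could share reads.

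Milr1 (gene ID 380732, chr11:106750646-106768794) encodes Allergin-1, an ITIM receptor named for its restraint of mast cell responses in allergy. In WT it stood at 6.58, 7.01 and 13.7 CPM at 0, 5.31, 7.27 and 12 at 20, and 5.67, 5.35 and 11.3 at 60. In KO it stood at 15.0, 8.11 and 12.3 CPM at 0, 14.3, 8.49 and 13.4 at 20, and 17.9, 7.88 and 12.9 at 60. KO was higher in 8 of 9 pairs, with overlap at each level. In number 414 KO had 15.8 CPM on average over the levels against 5.85 in WT, while in number 6110 the means were 12.9 and 12.3. Over all levels the change was 0.57 ± 0.24 (log2) (edgeR adjusted p = 0.12), and it was 0.17 without number 414. It passed without WT 6110 at 0 (0.72, edgeR adjusted p = 0.047). Milr1 overlaps Polg2, with which it could share reads. Kpna2, which starts 238 kb from Milr1, was higher in KO at 20 and 60 (log2 fold change 1.64 and 2.20), the only called gene among 21 tested within 500 kb of Milr1 at these levels. The share of all genes called was 0.21% at 20 and 0.268% at 60.

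Set side by side, the genotype difference at single levels gave no call among the 10 receptors by edgeR, where 0.274% of all genes were called at 0, 0.21% at 20 and 0.268% at 60. At an unadjusted p under 0.05 there were 3 receptors at 0 (Fcgr2b, Lilrb4a and Cd300lf), 2 at 20 (Fcgr2b and Lilrb4a) and 2 at 60 (Fcgr2b and Sirpa), against 12.1%, 7.79% and 10.7% of all genes. DESeq2 called 0, 0 and 1 (Fcgr2b at 60), and limma-voom called 0 at each level. The log2 fold change was above 0 for 7 of the 10 at each level, and its median over the receptors was 0.34, 0.23 and 0.32, against 0.006, −0.020 and 0.023 over all genes. Over all levels 3 of 10 were called, 1 higher and 2 lower, beside the 10.9% of all genes given above. The block by number raised that count to 6, with Pecam1, Sirpa and Milr1 added, and the sums per set lowered it to 0. The share of all genes called with the block is not given here, so its count has no background. The block also still treats the libraries of a set as separate samples.

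**Figure D3:**
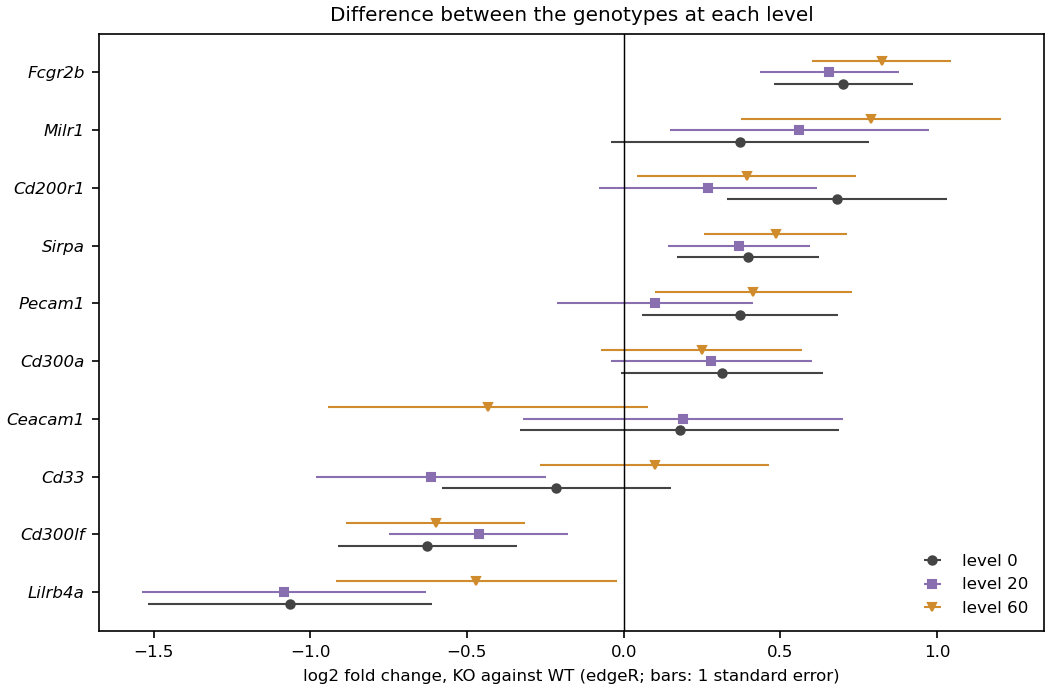
Log2 fold change of KO against WT from edgeR for each receptor at the 3 levels, with bars of 1 standard error. The points of Fcgr2b lie from 0.66 to 0.82 and those of Lilrb4a from −1.08 to −0.47, and no single point passed the adjusted test.

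Cd33 (gene ID 12489, chr7:43527399-43537424), or Siglec-3, was the receptor that changed with the level. The mouse protein differs from human CD33 in its cytoplasmic tail. In WT Cd33 was counted at 40.6, 39.2 and 69.9 CPM at level 0, at 154, 72.3 and 104 at 20, and at 193, 172 and 325 at 60. In KO it was counted at 28.1, 30.9 and 70.0 CPM at 0, at 67.6, 64.6 and 83.8 at 20, and at 216, 244 and 280 at 60. The libraries at 60 were above all those at 0 and at 20 of their genotype. At 20 the WT libraries were all above those at 0, while in KO they overlapped, although each number was higher at 20. Of all genes, 5.46% had libraries at 20 wholly above those at 0 in WT. For 60 above 0 the share was 5.41% in WT and 9.18% in KO, and for 60 above 20 it was 5.25% and 8.58%.

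Cd33 rose by 2.20 ± 0.38 (log2, SE) from 0 to 60 in WT (edgeR adjusted p = 0.023) and by 2.52 ± 0.39 in KO (adjusted p = 0.0021). Of all genes, 0.221% were called in WT and 0.198% rose, 2.54% were called in KO and 1.99% rose, and Cd33 was the only receptor of the 10 called in either. Between 20 and 60 it rose by 1.77 ± 0.38 in KO (edgeR adjusted p = 0.032), as 0.752% of genes did, where 1.11% were called. In WT the change between 20 and 60 was 1.06 ± 0.37 (edgeR adjusted p = 0.36). From 0 to 20 the change was 1.14 ± 0.37 in WT and 0.74 ± 0.37 in KO (edgeR adjusted p = 0.41 and 1). The numbers met the rule for pairing at 20 against 0 in WT. Number 4120 had a mitochondrial share over 20% at both levels, so pairing cannot be told apart from that shared trait. A block fitted to those 2 groups alone gave 1.12 with an edgeR adjusted p of 0.021, while the block over all 18 libraries gave no call. No receptor was called by edgeR in WT 20 against 0 (0.6% of all genes), WT 60 against 20 (0.443%) or KO 20 against 0 (0.449%). At an unadjusted p under 0.05 these had 1, 1 and 0 of the 10 receptors, against 5.77%, 7.56% and 3.23% of all genes, DESeq2 called 0 in each, and limma-voom with the set as a random effect called Cd33 in the first 2.

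The Cd33 call in WT rested on few libraries. It was lost without WT 414 at 0 (2.07, edgeR adjusted p = 0.21), WT 4120 at 0 (2.08, 0.15) or WT 6110 at 60 (1.86, 0.19), and without number 4120, 414 or 6110 in all groups (adjusted p = 0.40, 0.36 and 0.064). Without the 5 libraries of high mitochondrial share the change from 0 to 60 was 2.17 in WT (edgeR adjusted p = 0.19) and 2.37 in KO (0.046). In KO the call at 60 against 0 held without each single library, and was lost without number 4120 (2.34, edgeR adjusted p = 0.12) or 414 (2.37, 0.079). The call at 60 against 20 in KO was lost without any 1 of its 6 libraries or WT 6110 at 20 (edgeR adjusted p 0.0529 to 0.161). The correlation of Cd33 with the log2 mitochondrial share was −0.19.

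The rise of Cd33 did not differ detectably between the genotypes. The difference of response, KO minus WT, was −0.40 ± 0.52 at 20 and 0.31 ± 0.52 at 60 (edgeR adjusted p = 1.00 for both). In these 2 comparisons 0 of the 17159 genes were called by edgeR, which is 0% of all genes, and no receptor was called by DESeq2 or limma-voom. At an unadjusted p under 0.05 there were 0 receptors in each, against 0.396% and 1.1% of all genes. Over the 10 receptors the standard error of this difference ran from 0.31 to 0.72 on the log2 scale.

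Genes known to be induced early by mast cell stimulation followed another course. All 8 on the list (Egr1, Fos, Nr4a1, Il13, Il6, Ccl3, Ccl4 and Tnf) rose at 20 in both genotypes, with a median log2 change of 5.29 in WT and 5.34 in KO. Egr1, an immediate early transcription factor, averaged 146, 2513 and 347 CPM at 0, 20 and 60 in WT and 123, 2691 and 581 CPM in KO. All 8 were lower at 60 than at 20 in both genotypes, whereas Cd33 had its highest values at 60. Of these decreases 7 passed the test in WT and 3 in KO, where 0.443% and 1.11% of all genes were called. At 60 against 0 the 8 genes were called in KO and 1, Il13, in WT. The shares of all genes called there were 2.54% in KO and 0.221% in WT. The difference between the genotypes in that response was called for none of the 8, as for 0% of all genes (edgeR, all genes adjusted together). Il6 was the only 1 of the 8 called between the genotypes over all levels, beside 10.9% of all genes. It was higher in KO by 0.78 (edgeR adjusted p = 0.037). That call was lost without any of 11 single libraries (adjusted p 0.0567 to 0.0892) and with summed counts (0.59).

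**Figure D4:**
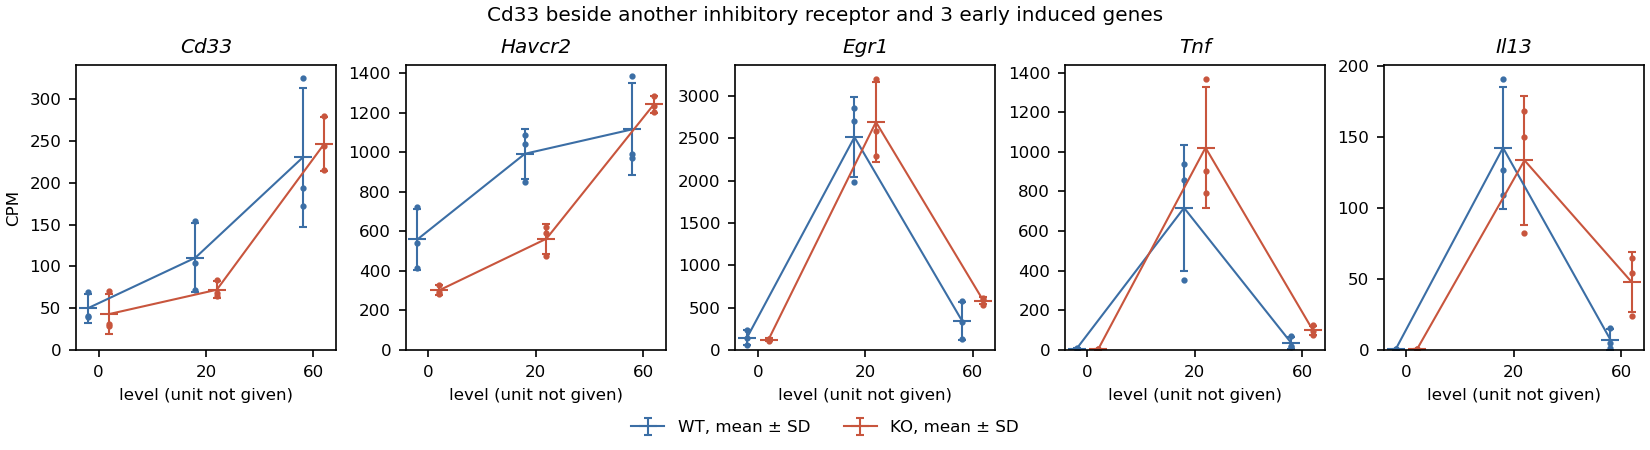
CPM by level (evenly spaced, unit not given) of Cd33, Havcr2, Egr1, Tnf and Il13, with points for libraries and mean ± SD (n = 3) for WT in blue and KO in red. Cd33 and Havcr2 are highest at 60, and Egr1, Tnf and Il13 at 20.

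Of 21 further inhibitory receptors, 14 were tested. In the comparison of KO at 60 and 0, where 2.54% of all genes were called, 2 were higher: Havcr2 (TIM-3, a checkpoint receptor) by 2.04 on the log2 scale (edgeR adjusted p = 0.00022) and Vsir (VISTA, a checkpoint ligand and receptor) by 2.47 (0.024). Havcr2 averaged 301 CPM at 0, 563 at 20 and 1243 at 60 in KO, while the WT means were 560, 993 and 1117 CPM. Its call in KO was lost without number 4120 (1.97, edgeR adjusted p = 0.063). Vsir was scarce, from 0.067 to 1.00 CPM in WT libraries and 0.257 to 4.80 CPM in KO, and its call was lost without KO 4120 or 6110 at 0 or KO 414 or 6110 at 60 (edgeR adjusted p 0.0605 to 0.110). Between 20 and 60 Havcr2 rose by 1.14 in KO (edgeR adjusted p = 0.024), a call lost without any 1 of those 6 libraries. The median log2 change of the 14 from 0 to 60 was 0.50 in KO and 0.17 in WT, against 0.001 and −0.021 over all genes.

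Between the genotypes over all levels, 6 of these 14 were called, where 10.9% of all genes were: Cd84, Vsir and Clec12a were higher in KO, and Clec12b, Siglece and Havcr2 were lower. Cd84, a self-binding receptor of the SLAM family, rose by 0.66 (edgeR adjusted p = 0.0017), with 101 to 140 CPM in WT libraries and 142 to 224 CPM in KO. Siglece, a relative of Cd33 whose gene starts within 500 kb of it, fell by 1.19 (edgeR adjusted p = 0.0046). Clec12b, an ITIM lectin, had 0 counts in 7 of the 9 KO libraries and 3 and 4 counts in the others, all of number 6110. In WT it ranged from 0.492 to 8.43 CPM, and it was called lower in KO at 0 and 60 as well (edgeR adjusted p = 0.031 and 0.019). Those calls were lost without WT 6110 or any 1 KO library of the level (edgeR adjusted p 0.0532 to 0.153). Clec12a, with 0 to 4 counts in each WT library and 5 to 17 in each KO library, is close to the counting limit. The call of Havcr2 was lost without WT 4120 at 0 or 20 or KO 414 at 0 (edgeR adjusted p 0.0510 to 0.0559). With counts summed per set none of the 6 passed (edgeR adjusted p 0.081 for Clec12b to 0.51 for Havcr2).

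The enzymes that read the motifs were compared as a list. Of 13 tested enzymes and adaptors, 1 was called over all levels, where 10.9% of all genes were. This was Dok1, the adaptor used by Cd200r1, which rose by 0.54 (edgeR adjusted p = 0.036). Dok1 was counted at 24.9 to 51.3 CPM in WT and at 49.7 to 64.4 CPM in KO. Its call was lost without any of 14 of the 18 libraries (edgeR adjusted p 0.0513 to 0.0697) and with summed counts (0.45). Inpp5d, which encodes SHIP-1, gave a log2 fold change of 0.03 (edgeR adjusted p = 0.90), and Ptpn6, which encodes SHP-1, one of −0.32 (0.17). The median of the 13 over all levels was 0.03, against 0.005 for all genes.

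Activating counterparts and the chains they signal through gave 3 calls among 14 tested over all levels, where 10.9% of all genes were called. These were Fcgr3 and Lilr4b, described above, and Tyrobp. Tyrobp encodes DAP12, the signalling chain of several activating receptors, and rose by 0.62 (edgeR adjusted p = 0.046). It ranged from 138 to 308 CPM in WT and 223 to 442 CPM in KO. Its call was lost without 13 of the 18 libraries (edgeR adjusted p 0.0517 to 0.107) and with summed counts (0.48). Of 6 tested genes on a list of ligands 1 was called, Thbs1, beside the same 10.9% of all genes. Thbs1 encodes a matrix protein that binds Cd47, itself the ligand of Sirpa. It had 0 to 3 counts in each WT library and 0 to 30 in each KO library. In the pathway that the receptors oppose, Kit was the only call among 9 over all levels, beside 10.9% of all genes. This receptor of stem cell factor rose by 0.66 (edgeR adjusted p = 0.018), with 776 to 1654 CPM in WT libraries and 1242 to 2653 CPM in KO, and did not pass with summed counts (0.37). Fcer1a, the IgE-binding chain of FcεRI, gave a log2 fold change of 0.38 (edgeR adjusted p = 0.24).

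The share of each receptor's variation that went with genotype, level and number was computed from the sum of squares of log2 CPM. Level took 84.2% of that of Cd33, and the median over all genes was 12.4%. Genotype took 64.6% for Fcgr2b, 46.6% for Sirpa, 44.0% for Cd300lf and 36.5% for Lilrb4a, against a median of 10.8%. The number took 72.5% for Ceacam1 and 70.1% for Pecam1, against a median of 19.3%. For Milr1 the 3 parts of genotype, number and their combination took 31.0%, 34.7% and 29.1%. Genotype by level took 7.71% or less for every receptor.

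**Figure D5:**
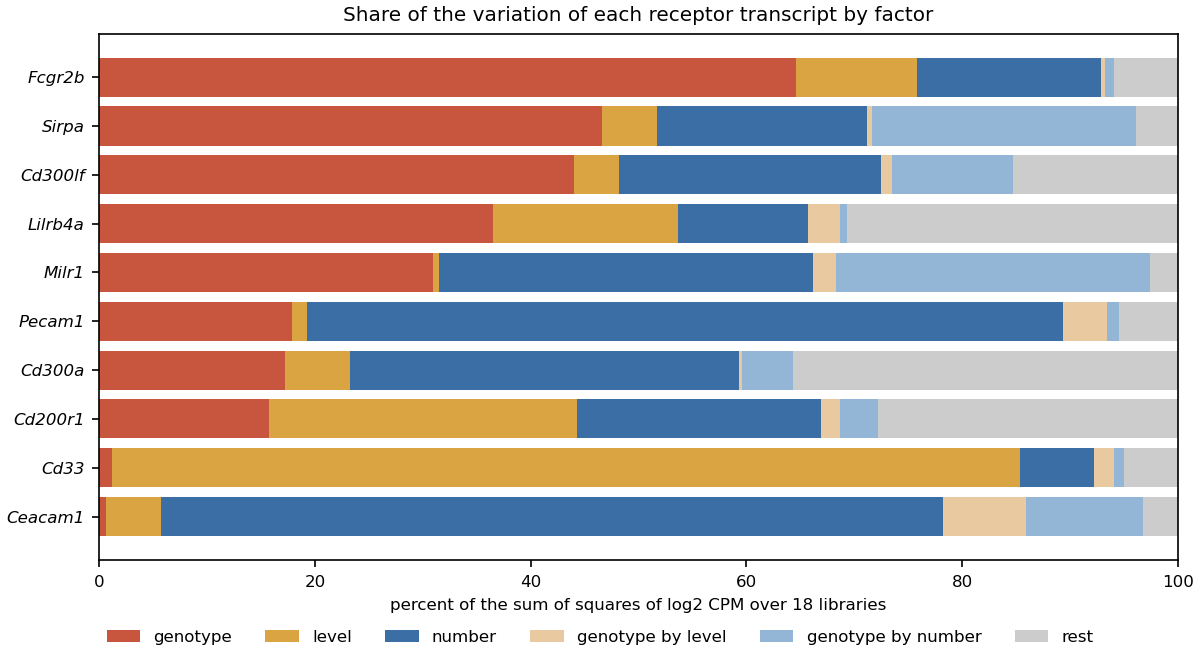
Percent of the sum of squares of log2 CPM over 18 libraries for each receptor, split into genotype, level, number, their combinations and the rest. Level fills 84.2% of the bar of Cd33, genotype 64.6% of that of Fcgr2b and number 72.5% of that of Ceacam1.

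Across the 18 libraries the receptors formed no single pattern. The highest Pearson correlations of log2 CPM among them were those of Pecam1 with Cd300a (0.76) and with Milr1 (0.76), and the lowest were those of Cd300lf with Sirpa (−0.80) and of Cd300a with Lilrb4a (−0.77). Among the 10096 genes that averaged 5 CPM or more, the transcripts most like Fcgr2b were Asph (0.90), Lman1 (0.88) and Ccdc127 (0.87). Those most like Cd33 were LOC115489026 (0.95), Pdlim5 (0.95) and Dot1l (0.95). For Cd200r1 they included its activating relative Cd200r4 (0.96) and Dctn4 (0.94). For Cd300a they were Ctse (0.96), Mettl26 (0.96) and Cln6 (0.96), and for Pecam1 Vim, Ptpa and Egln1 (each 0.95). Lilrb4a was followed by Lilr4b (0.99), LOC115490111 (0.94) and Gtf2f1 (0.93), and Sirpa by Wdr76 (0.95), Ednra (0.94) and Eif3j2 (0.91). Cd300lf was most like Commd4, Crocc and Cdk5 (each 0.90), Milr1 like Il10rb (0.91) and Cab39l (0.90), and Ceacam1 like Gm12092 (0.91), Adam8 (0.91) and Gm32355 (0.90). These libraries share sets, genotypes and a wide range of mitochondrial share, so the correlations describe the libraries alone.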

How the data were processed

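RNA from 18 libraries of bone marrow-derived mast cells was sequenced from TruSeq RNA libraries, per the labels. Tools listed in the submitters' processing notes are HISAT2 2.1.0, StringTie 2.1.3b, bcl2fastq 2.20.0 and FastQC 0.11.7, with the build mm10. The authors deposited 1 table with a raw read count, an FPKM and a TPM per gene and library, per the file headers. The counts were tested, TPM gave levels per length and an alternative test (log2(TPM + 0.1), limma), and the deposited FPKM values were not used.

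Genes were kept by filterByExpr (17159) and scaled by TMM. All 18 libraries entered 1 edgeR 4.0.16 fit (quasi-likelihood, R 4.3.3) with a mean for each group, with Benjamini-Hochberg adjustment over all genes tested and calls at an adjusted p under 0.05. The fit was tested on simulated counts. Alternatives used DESeq2 1.42.0 and limma 3.58.1. Log2 CPM had a prior count of 2. Positions are RefSeq, GRCm38. Within each group every pair of libraries differed beyond counting noise.

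The numbers were taken to pair a comparison where paired deviations from group means correlated above 0.1 in all 3 numbers: KO against WT at 60 (0.43 to 0.53), WT 20 against 0 (0.62 to 0.76), and in KO 20 against 0 (0.40 to 0.58), 60 against 0 (0.33 to 0.67) and 60 against 20 (0.37 to 0.60). A number with a mitochondrial share over 20% in both compared groups could also meet this rule. This was number 414 in KO against WT at 60 and in KO 60 against 0, and number 4120 in WT 20 against 0.

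The receptors and gene lists were chosen with earlier results of these data known. All 10 receptors are given, with the 3 genes of highest correlation (some are not reported here) and called genes that start within 500 kb. Of other lists, markers included, genes called in a comparison are named, at most 4 by smallest p, and Sirt6 and Lyz2 as checks. The rule's 2 most abundant genes of a list without calls are not all given. Clec12a and Havcr2 over all levels, the full early induced list, Cd47, Inpp5d, Ptpn6 and Fcer1a fall outside that rule and were chosen after their values were seen.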

Additional observations from a re-analysis of the deposited data

How the results depend on the processing

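With the library number as a block, 1 receptor was called for KO against WT at 0 (Fcgr2b, 0.70, edgeR adjusted p = 0.040, where the numbers did not meet the rule for pairing), 1 at 60 and 6 over all levels. Fitted to the compared groups only, the block called 0 at 0, 0 at 60, 6 over all levels and 1 for WT 20 against 0, where the block over all libraries called 0. The block changed no other receptor's call. The shares of all genes called in these block fits are not given here, so their counts have no background.

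Over all levels, KO against WT, 3 receptors were called. The count was 0 with the set as a random effect, with log2 TPM and with counts summed per set. It was 1 with library size alone, without a filter on low counts, with the mitochondrial share as covariate, at an adjusted p under 0.01 and without the 5 libraries of high mitochondrial share. Leaving out a library or number gave 0 to 4. Fcgr2b lost its call in 4 of 37 alternatives and Lilrb4a and Cd300lf in 24 each.

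At 60, KO against WT, DESeq2 called 1. With the set as a random effect, 1 was called for WT 20 against 0 and 1 for WT 60 against 20. The single call (Cd33) of WT 60 against 0 became 0 with library size alone, compared groups only, log2 TPM, an adjusted p under 0.01 and without the 5 libraries, and leave-outs gave 0 to 1. That of KO 60 against 0 became 0 with log2 TPM, and leave-outs gave 0 to 1. That of KO 60 against 20 became 0 with library size alone, log2 TPM, an adjusted p under 0.01 and without the 5 libraries, and leave-outs gave 0 to 1. The cause was not tested, other than fewer samples where libraries are left out.

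No value of a called receptor reversed. Scaling by library size without TMM moved the all-gene median log2 change: 0.16 (KO against WT at 0 and 20), 0.11 (the 3 levels together), −0.22 (KO 60 against 0 and against 20) and −0.14 (difference of response at 60). Fits without the 5 libraries, and without mitochondrial genes, were chosen after seeing the data. Of the receptors, Ceacam1 had the lowest counts and the largest standard errors. Clec12a, Clec12b, Thbs1 and Vsir had few counts, and depth limits their values more.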
